A study of Homo sapiens with 6 samples.

Results

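The 52 genes described here are the DEAD and DEAH box RNA helicases of human U2OS osteosarcoma cells, taken from 19940 gene rows by their symbols. A gene was included if its symbol was DDX or DHX followed by a number and, for DDX, any further letters, except DDX6, DDX58 and DDX3Y. By this rule 36 genes had a DDX symbol and 16 a DHX symbol, and no measured value entered the choice. RNA helicases of this kind use ATP to pull apart short RNA duplexes or to strip proteins from RNA. DEAD box enzymes mostly open duplexes locally, whereas DEAH box enzymes move along a strand and drive the large rearrangements of the spliceosome and of the early ribosome. Between them they act in ribosome assembly, splicing, mRNA export, translation, mitochondrial RNA handling and the sensing of viral RNA, and several gather in nucleoli, P-bodies or stress granules.

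All cells carried a stably expressed fusion of green fluorescent protein with DCP1a, a decapping cofactor that marks P-bodies, and were kept under G418 selection. Of the 3 groups, each with 2 libraries, the isotonic one was held in medium with 150 mM sodium, mock supplemented with a salt buffer. The hypertonic group was held for 4 h in medium brought to 300 mM sodium. The rescue group had the same hypertonic exposure and then 4 h of isotonic medium. No isotonic library was taken at the time of the rescue, so recovery and the longer time in culture cannot be told apart. Whether a group's 2 libraries stem from different cultures is not stated, and p-values therefore reflect variation among these 6 libraries alone, possibly of technical origin. Total RNA depleted of ribosomal RNA was counted per gene.

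Across the 6 libraries, total counts ranged from 90196278 to 105991428, and a floor of 3 counts corresponded to between 0.0283 and 0.0333 CPM (counts scaled to a common library total), counting error only. Before any comparison, the libraries went against their labels: isotonic 1 resembled hypertonic 2, and isotonic 2 resembled hypertonic 1. Among the 48 helicase genes averaging at least 5 CPM, none differed by 1.5-fold or more between the library labelled isotonic 1 and that labelled hypertonic 2, and the median fold was 1.02. Likewise none did so between isotonic 2 and hypertonic 1, with a median fold of 1.03. By contrast 12 of the 48 differed by that much between the 2 isotonic libraries and 13 between the 2 hypertonic ones. The labels were kept as given throughout, and why they resemble each other was not tested. The rescue libraries differed from each other by at most 1.1-fold, in DHX35. COL1A1, SPARC and RUNX2, markers of the bone lineage, were detected in every library, whereas IBSP, COL1A2 and SP7 stayed under 1 CPM. The 9 bone markers summed to between 1570 and 2000 CPM, 6 epithelial markers to between 348 and 553 CPM and 6 leukocyte markers to between 3.19 and 12.8 CPM.

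Levels of a gene are given below as CPM by library total, in the order isotonic 1, isotonic 2, hypertonic 1, hypertonic 2, rescue 1 and rescue 2. These values are not scaled for gene length, so they are compared between libraries and not between genes. The genes lay on 18 chromosomes, with spans from 2.17 to 275.9 kb, and 24 of them overlapped another gene of the tables. Reads in such overlaps could be counted for both genes. The row of DDX39B, whose span lies wholly inside that of the readthrough gene ATP6V1G2-DDX39B, held nearly the same count as the readthrough row, with a ratio of 1.0 to 1.01 in the 6 libraries.

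Start-site sequences are shown for 6 genes that carry the main patterns, to let the reader see what DNA lies at genes that moved together and at the genes that varied most. Each runs from 200 bases before the RefSeq start site and takes in the first 30 transcribed bases, 5′ to 3′ on the gene's strand, from RefSeq GRCh38.p14. DDX3X (chrX:41333108-41333337, plus strand), the gene of at least 5 CPM with the largest ratio of hypertonic 1 over isotonic 1, is shown with 2 GC boxes (GGGCGG) in capitals. DHX35 (chr20:38962144-38962373, plus strand), the gene with the smallest such ratio, is shown with 2 E-boxes (CACGTG) in capitals. The DHX35 sequence also holds 2 GC boxes, left in lower case, so the GC box is common to both genes.
DDX3X: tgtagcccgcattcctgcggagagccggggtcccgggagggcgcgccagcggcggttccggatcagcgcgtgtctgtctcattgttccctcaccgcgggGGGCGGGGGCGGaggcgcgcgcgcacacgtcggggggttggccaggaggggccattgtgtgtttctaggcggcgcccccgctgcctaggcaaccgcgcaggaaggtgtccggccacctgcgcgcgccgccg
DHX35: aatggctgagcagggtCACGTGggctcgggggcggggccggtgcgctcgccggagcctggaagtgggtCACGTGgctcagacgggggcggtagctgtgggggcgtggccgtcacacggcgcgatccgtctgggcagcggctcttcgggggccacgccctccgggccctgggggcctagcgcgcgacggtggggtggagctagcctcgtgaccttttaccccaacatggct

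DDX21 (chr10:68955970-68956199, plus strand) and DDX47 (chr12:12813146-12813375, plus strand) are nucleolar helicases that were lower in the rescue, and each is shown with an ETS core (CCGGAAG, or CTTCCGG when read on the other strand) in capitals. In the windows searched as described below, the ETS core lay at most of the lower genes but not at all of them. DDX1, DDX27, DDX42, DDX46, DDX56, DHX16, DHX34 and DHX37 also held it, whereas DDX10, DDX11, DDX23, DDX51 and DDX54 did not. The lower genes DDX18, DDX52 and DHX33 had no start site to search. The core was also found at helicases not called lower: DDX5, DDX19A, DDX31, DDX39B, DDX50, DHX8, DHX30, DHX36, DHX38 and DHX57. Whether the ETS core marks the lower genes was not tested.
DDX21: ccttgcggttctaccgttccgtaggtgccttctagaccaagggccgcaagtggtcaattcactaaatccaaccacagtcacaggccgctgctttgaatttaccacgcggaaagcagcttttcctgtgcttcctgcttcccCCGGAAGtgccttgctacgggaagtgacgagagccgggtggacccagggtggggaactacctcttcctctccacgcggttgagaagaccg
DDX47: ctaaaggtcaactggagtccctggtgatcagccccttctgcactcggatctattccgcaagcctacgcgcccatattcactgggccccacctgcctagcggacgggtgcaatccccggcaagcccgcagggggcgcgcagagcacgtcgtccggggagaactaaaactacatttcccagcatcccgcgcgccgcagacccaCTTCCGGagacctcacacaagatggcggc

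DDX60 (chr4:168318723-168318952, minus strand) and its neighbour DDX60L (chr4:168480463-168480692, minus strand) are related antiviral genes, and both hold 2 matches to the core of the interferon-stimulated response element (GAAA, any 2 bases and GAAA, here in capitals).
DDX60: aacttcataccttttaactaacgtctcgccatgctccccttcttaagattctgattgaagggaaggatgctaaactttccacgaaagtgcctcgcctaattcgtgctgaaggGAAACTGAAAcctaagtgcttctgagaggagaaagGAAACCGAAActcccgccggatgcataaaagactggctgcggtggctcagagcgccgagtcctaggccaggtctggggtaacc
DDX60L: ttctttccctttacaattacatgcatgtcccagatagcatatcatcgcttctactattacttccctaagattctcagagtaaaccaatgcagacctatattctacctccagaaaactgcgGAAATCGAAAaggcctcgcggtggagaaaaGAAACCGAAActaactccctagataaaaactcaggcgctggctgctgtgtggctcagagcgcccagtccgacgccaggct

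Of the 52 genes, 47 had a start site in the RefSeq table, and DDX18, DDX49, DDX52, DHX33 and DHX58 did not. Windows from 250 bases before to 50 after the start were searched on both strands. The ETS core was present in 20 of the 47 windows (42.6%), against 10.7% of all 27305 windows and 15.4% of the 13670 windows of genes tested. The cyclic AMP response element TGACGTCA was present in 5 windows (10.6%, against 1.98% of all and 2.72% of the tested genes' windows), those of DHX36, DDX10, DDX51, DDX28 and DDX19A. An E-box was found in 17% of the helicase windows, 7.43% of all windows and 9.2% of the tested genes' windows, and the CCAAT box in 46.8%, 35.7% and 36%. The GC box was present in 55.3%, above the 44.6% of all windows and below the 62.7% of the tested genes' windows. The interferon element core was present in 3 windows, those of DHX15, DDX60 and DDX60L (6.38%, against 3.65% of all and 2.97% of the tested genes' windows). The AP-1 site TGANTCA was present in 2 windows, those of DHX15 and DDX19B (4.26%, against 7.76% of all and 5.47% of the tested genes' windows). The tonicity element TonE, the site of the osmotic stress factor NFAT5, matched only in the window of DHX8 (2.13%, against 5.02% and 3.48%). These matches describe letters in the windows and were not tested for use, and a window without a match says nothing about the factor.

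The first comparison asks which helicase transcripts the hypertonic medium changed. As labelled, hypertonic against isotonic gave no call among the 51 helicases tested, in either direction, and 0% of the 18208 genes tested were called (edgeR quasi-likelihood test, Benjamini-Hochberg). At an unadjusted p under 0.05 there were 52 genes among all tested and 0 helicases, and DESeq2 and limma voom called 0 helicases. The helicases' fitted log2 fold changes had a median of 0.0. The group means average over large differences within each replicate number, given next library by library.

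DDX3X, an X-linked helicase that helps ribosomes scan structured mRNA leaders and that gathers in stress granules, had the largest rise from isotonic 1 to hypertonic 1 in CPM among helicases of at least 5 CPM. Its level was 355.1, 941, 949.5, 357, 338.9 and 331.2 CPM. Isotonic 2 and hypertonic 1 were thus about equally high, well above the other 4. The ratio was 2.67-fold in number 1, with hypertonic higher, and 2.64-fold in number 2, with isotonic higher. The 52 genes totalled 5797, 6126, 6105, 5769, 4644 and 4553 CPM, and without DDX3X 5442, 5185, 5156, 5412, 4306 and 4222 CPM. Leaving out DDX3X thus turned the order of isotonic 2 and hypertonic 1 against isotonic 1 and hypertonic 2, and the rescue sums were the lowest with and without it. The span of DDX3X also encloses a 7SL RNA copy in antisense orientation, whose part in these counts was not tested.

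**Figure D1:**
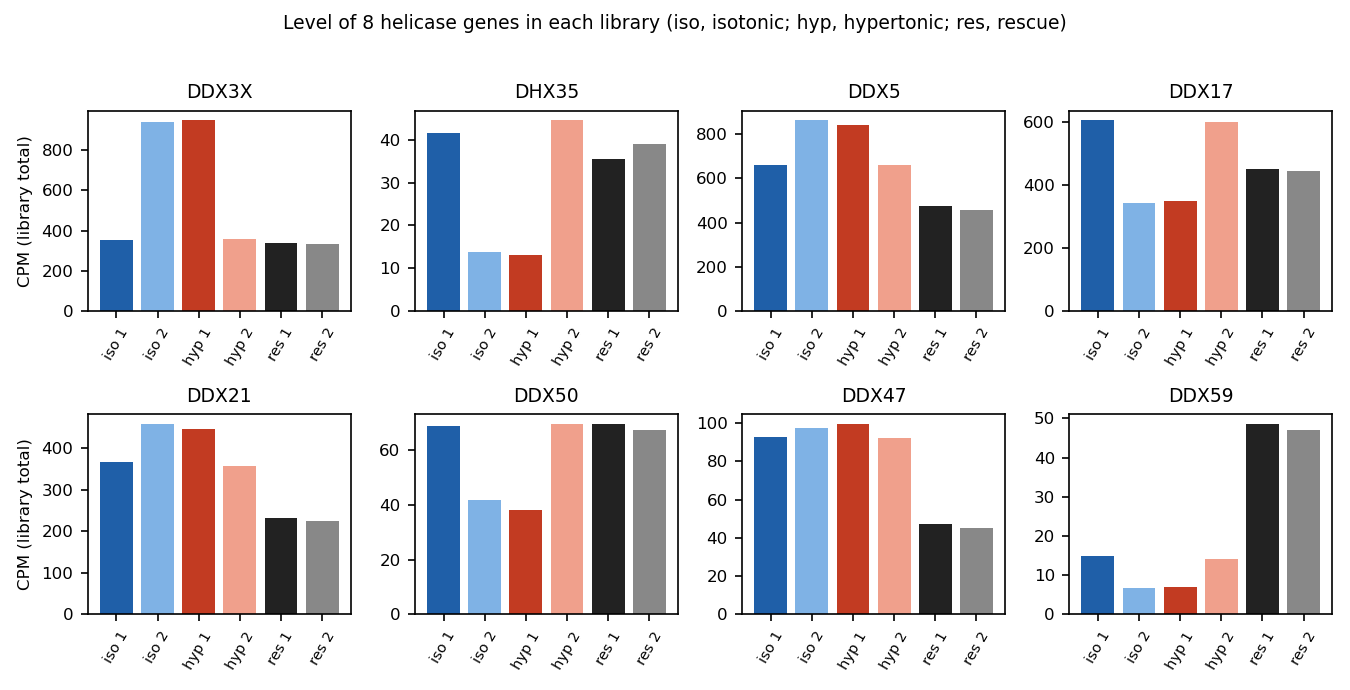
Level of 8 helicase genes in each library, in CPM by library total (y axes start at 0 and differ in scale; iso, isotonic; hyp, hypertonic; res, rescue); each bar is 1 library and there are no error bars. DDX3X stands at 941 and 949.5 CPM in isotonic 2 and hypertonic 1 and between 331.2 and 357 CPM in the other 4, while DDX47 is at 47.2 and 45.1 CPM in the rescue libraries and between 92.1 and 99.8 CPM elsewhere.

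DHX35, a component of the catalytically active spliceosome, showed the opposite order, at 41.6, 13.8, 13, 44.6, 35.6 and 39 CPM. It was 3.21-fold apart in number 1, with isotonic higher, and 3.25-fold apart in number 2, with hypertonic higher. The rescue libraries lay near the upper pair. DDX60, an interferon-induced helicase, stood at 9.3, 3.37, 3.07, 10.3, 17 and 17.9 CPM. DDX60L, its neighbour on chromosome 4, stood at 54.7, 26.5, 23.9, 57, 63.4 and 68.7 CPM. Both genes were low in the same 2 libraries as DHX35, and by library total both were highest in the rescue. The span of DDX60L overlaps PALLD on the opposite strand over 22.5% of its length; PALLD was likewise lower in isotonic 2 and hypertonic 1 but was lowest in the rescue, at 500, 380.2, 388.5, 489.3, 217.8 and 231.1 CPM.

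DDX28, which supports assembly of the mitochondrial ribosome, was at 6.71, 2.17, 2.67, 6.61, 14.1 and 13.2 CPM. Its short span lies wholly within DUS2, a gene on the opposite strand for a tRNA-modifying enzyme, which was at 29.2, 7.98, 8.1, 29.1, 30.5 and 30.3 CPM. The 2 rows were low in the same libraries, and reads of one may stand in the other, which was not tested. DHX30, which acts on mitochondrial transcripts, was at 91.8, 49.3, 50.8, 89.6, 75.2 and 74.4 CPM and so had the same low pair. DDX59, a gene linked to ciliary signalling, was at 14.9, 6.76, 6.88, 14.2, 48.7 and 47 CPM. DDX55, a helicase of the large ribosomal subunit, was at 45.1, 22.5, 21.6, 46.5, 42.2 and 42.8 CPM.

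Smaller differences in the direction of DDX3X were seen in several splicing helicases and in others, among them DDX5, DDX21 and DHX9. The splicing helicases DHX35, DDX23, DDX46, DDX42 and DHX16 had the opposite order. DDX41, which joins the late spliceosome, was at 19.4, 26.4, 28.5, 18.9, 18.2 and 17.7 CPM. DHX38, which remodels the spliceosome between its catalytic steps, was at 66.8, 82.6, 89.9, 67.5, 66.8 and 64.1 CPM. DHX15, which takes apart spent spliceosomes, was at 173.2, 233.7, 227.1, 169.3, 120 and 120.2 CPM. Its span encloses a 7SL RNA copy in the sense orientation, whose part in these counts and in the fold change given below was not tested. For all 3 the libraries labelled isotonic 2 and hypertonic 1 were the highest. DDX43, a gene usually confined to testis and tumours, differed little, at 15.7, 18.7, 19.1, 16.2, 19 and 19 CPM.

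Counted over the family, 3 of the 51 genes were 1.5-fold or more higher and 11 were that much lower in hypertonic 1 than in isotonic 1, against 16.7% and 28.1% of all genes with more than 3 counts. In number 2 the counts were 13 higher and 3 lower, against 27.2% and 17.6%. The 3 higher in number 1 and the 3 lower in number 2 were the same, DDX3X, DDX4 and DDX25. DDX4 and DDX25 had no more than 15 and 26 counts in any isotonic or hypertonic library. Fits with the isotonic and hypertonic libraries of 1 number only, in which these lone libraries are assumed to vary like the rescue pair, compare libraries rather than conditions. They called 17 helicases higher and 17 lower in number 1 (31.6% and 32.6% of all genes) and 20 higher and 16 lower in number 2 (32.9% and 31%). Of the 32 helicases called in both, 32 were called in opposite directions. The helicase shares were close to those of all genes in these fits. On TMM-scaled CPM 5 helicases were 1.5-fold or more higher in number 1 (20.2% of all genes) and 5 that much lower in number 2 (20.7%), also 5 on upper quartile scaled CPM (20.4%).

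**Figure D2:**
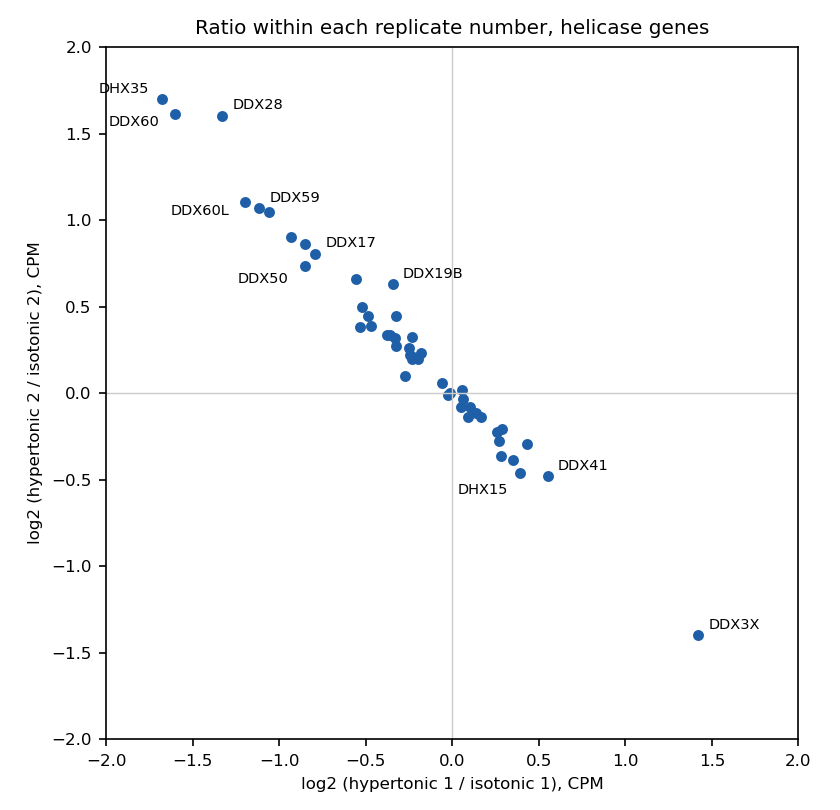
Log2 ratio of CPM, hypertonic over isotonic, within number 1 (x axis) and within number 2 (y axis) for the 48 helicase genes averaging at least 5 CPM; each point is 1 gene. The points run from the upper left (DHX35, -1.68 and 1.70) to the lower right (DDX3X, 1.42 and -1.40), so a gene higher in hypertonic in one number was mostly lower in the other.

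Several close relatives within the family did not keep a constant ratio. DDX5 and DDX17 are closely related coregulators of transcription and of microRNA processing that can substitute for each other. DDX5 stood at 660.9, 864, 843.4, 661.8, 476.8 and 457.8 CPM, and DDX17 at 605.1, 342.5, 349.7, 598.8, 450.2 and 445.2 CPM. Set to 1 in isotonic 1, the ratio of DDX5 to DDX17 was 2.31 in isotonic 2, 2.21 in hypertonic 1, 1.01 in hypertonic 2, and 0.97 and 0.941 in the rescue. In isotonic 2 and hypertonic 1 the pair thus moved apart, while in the rescue both were lower than in isotonic 1 by a similar factor. The authors' counting could split reads of such similar genes in ways not known here.

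DDX21, which couples synthesis and modification of ribosomal RNA, and its paralog DDX50 lie side by side on chromosome 10, at 68956128 to 68985073 and 68901278 to 68946847 (GENCODE spans on GRCh38). DDX21 was at 366.4, 459.6, 445.7, 357.1, 231.2 and 226.1 CPM, and DDX50 at 68.8, 41.7, 38.1, 69.4, 69.6 and 67.3 CPM. The ratio of DDX21 to DDX50, set to 1 in isotonic 1, was 2.07 and 2.2 in isotonic 2 and hypertonic 1, 0.967 in hypertonic 2, and 0.625 and 0.631 in the rescue. The ratio was thus lowest in the rescue, where DDX21 was low and DDX50 stood near its isotonic 1 level.

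DDX19A and DDX19B, helicases that release export factors from mRNA at the nuclear pore, are neighbours on chromosome 16. DDX19A was at 60, 39.2, 40.8, 61.9, 35.6 and 37.3 CPM and DDX19B at 34.1, 23.4, 26.9, 36.2, 35.1 and 35.7 CPM. Their ratio, set to 1 in isotonic 1, stayed between 0.864 and 1 in the isotonic and hypertonic libraries and was 0.578 and 0.593 in the rescue. Both share most of their span with another row, AC012184.2, on the same strand. DDX39A and DDX39B, the export and splicing helicases related to yeast Sub2, kept the most even ratio of the 5 pairs. DDX39A was at 62.5, 70.5, 70.1, 64.2, 54.5 and 51.8 CPM and DDX39B at 349.5, 376.4, 384.4, 347, 370 and 355 CPM, with a relative ratio from 0.817 to 1.05. For DDX60 over DDX60L the relative ratio was 0.747 and 0.756 in isotonic 2 and hypertonic 1, 1.06 in hypertonic 2, and 1.58 and 1.53 in the rescue.

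The second comparison asks how transcripts stood after 4 h of recovery. In the rescue 18 of the 51 helicases were lower than in the isotonic libraries and 0 were higher (edgeR, adjusted p under 0.05). Over all genes tested 13.5% were lower and 9.61% higher, and among those averaging at least 5 CPM 18.3% were lower and 6.65% higher, a set to which 48 helicases and all 18 lower ones belong. The median log2 fold change was -0.58 for the helicases and -0.02 for all genes. Most of the lower genes serve the nucleolus: 11 of the 16 ribosome assembly helicases passed, against 4 of the 10 splicing helicases. Only 3 of all the remaining helicases among the 51 tested passed. The split depended on scaling. With upper quartile scaling the counts were 10 lower and 1 higher (7.71% and 11.5% of all genes), and with library totals alone 6 were lower and 1 higher (6.02% and 11.3%). The median of all genes moved from -0.02 under the main scaling to 0.19 and 0.27 under these. Of the 10 lower with upper quartile scaling, DDX10, DDX47, DDX51, DDX52, DDX54 and DHX33 act in ribosome assembly. DDX42 and DDX46 act in splicing, and DDX1 and DDX11 have other roles. Leaving out either isotonic library or either rescue library (isotonic 1, isotonic 2, rescue 1 or rescue 2) left 0 helicases called. Fits with 1 isotonic and 1 hypertonic library, with the spread taken from the rescue pair, called 40 helicases lower and 6 higher against isotonic 1 (38.6% and 40.5% of all genes) and 35 lower and 12 higher against isotonic 2 (40.1% and 40.7%). All 18 genes were among the lower ones in both.

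**Figure D3:**
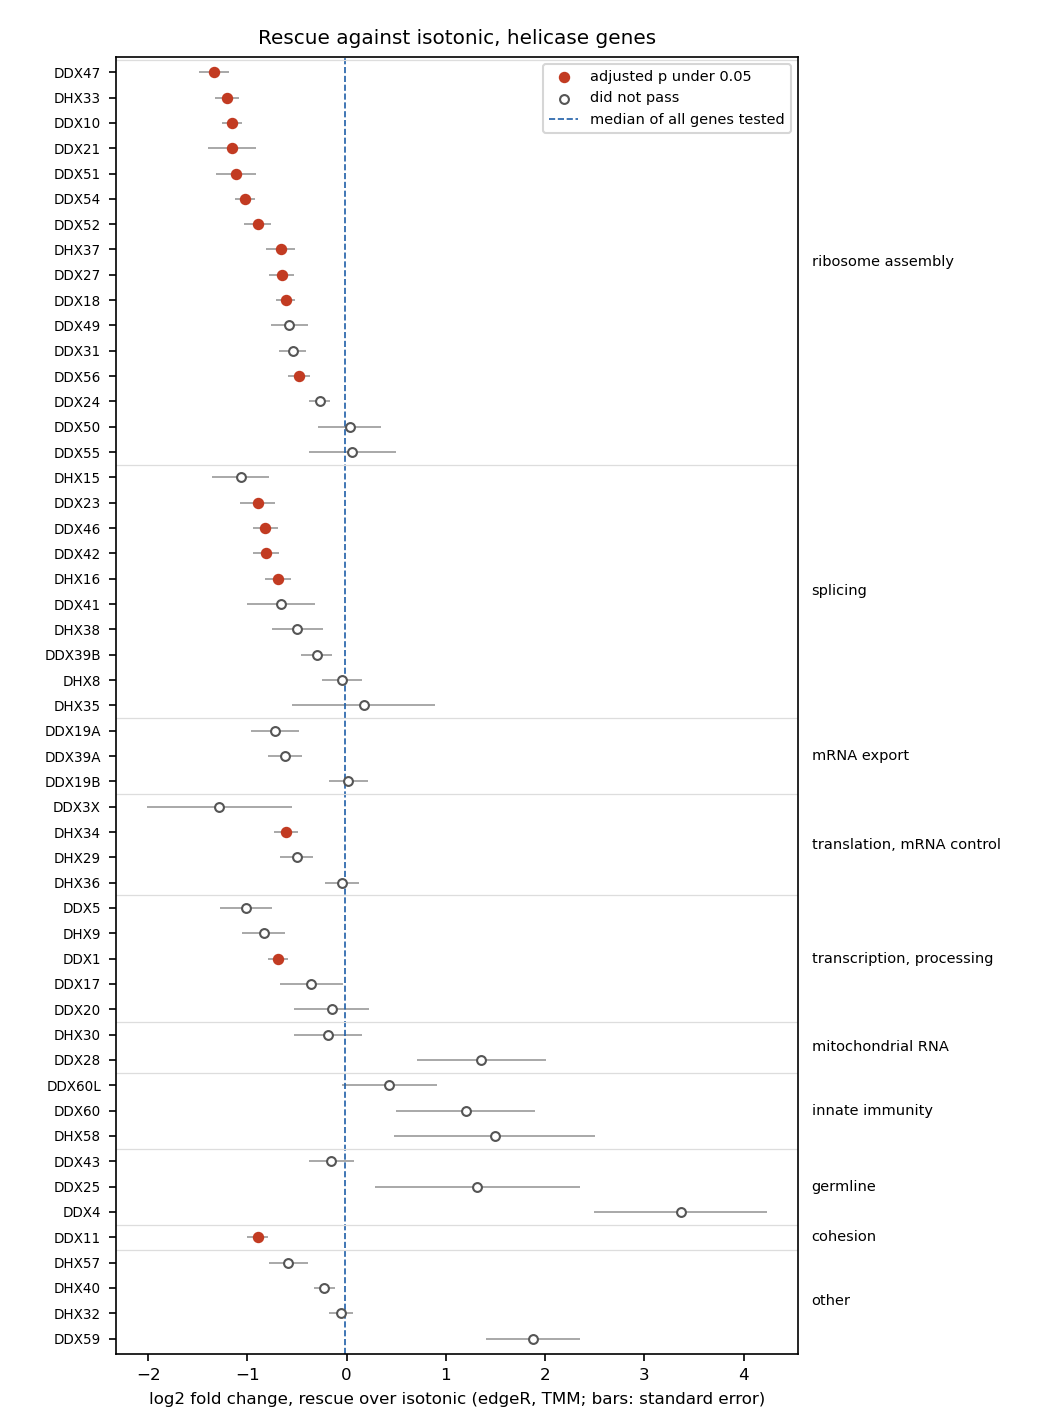
Log2 fold change of rescue over isotonic for the 51 helicase genes tested (edgeR with TMM scaling; bars, standard error; dashed line, median of all genes tested), ordered by role. Filled points are the 18 genes with an adjusted p under 0.05, all of them left of the dashed line, from DDX47 at -1.34 to DDX56 at -0.48.

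Among the ribosome assembly helicases, DDX47, needed for the first cleavages of the ribosomal RNA precursor, was at 92.8, 97.3, 99.8, 92.1, 47.2 and 45.1 CPM. Its 4 isotonic and hypertonic libraries lay together and both rescue libraries were below them, with a log2 fold change from isotonic to rescue of -1.34 (SE 0.151, edgeR adjusted p = 0.0109). Its span lies wholly inside the row of APOLD1 on the same strand, which was at 128.7, 104.5, 106.8, 128.9, 83 and 84.1 CPM. DHX33, which promotes transcription of ribosomal RNA genes, was at 66.5, 67.3, 65.5, 66.7, 35.6 and 35.8 CPM and had a log2 fold change of -1.20 (SE 0.122, edgeR adjusted p = 0.00978). The 4 isotonic and hypertonic values of DHX33 spanned only 65.5 to 67.3 CPM. C1QBP overlaps 28.1% of the DHX33 span on the same strand, and its part in these counts was not tested. DDX10, a helicase of the small subunit precursor, was at 117.8, 107.7, 97.6, 115.3, 60.2 and 63.6 CPM and fell by 1.16 (SE 0.0998, edgeR adjusted p = 0.0089).

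DDX21, whose values stand above with those of DDX50, fell by 1.16 (SE 0.241, edgeR adjusted p = 0.0352). DDX51, which acts in maturation of the large subunit RNA, was at 15.9, 11.2, 12.7, 15.3, 7.94 and 7.26 CPM, a log2 fold change of -1.12 (edgeR adjusted p = 0.0242). DDX54, another large subunit helicase, was at 76.4, 65.1, 66.6, 74.5, 43.1 and 42.1 CPM, with a change of -1.02 (edgeR adjusted p = 0.00969). In none of these genes did the rescue overlap the other groups. DDX52, a helicase of the small subunit, was at 61.8, 64.9, 64.6, 63.5, 41.6 and 42.2 CPM and changed by -0.90 (edgeR adjusted p = 0.0176). DDX27, DHX37, DDX18 and DDX56, which also act in the nucleolus, fell by 0.66, 0.66, 0.61 and 0.48. ZNFX1 overlaps 24.7% of the DDX27 span on the opposite strand, and its part in these counts was not tested. Of the 11 ribosome assembly helicases that passed, DDX10, DDX21, DDX47, DDX52, DDX54 and DHX33 were the 6 that also passed with library totals alone.

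The other 5 ribosome assembly helicases did not pass. DDX50 and DDX55 have been described above. DDX24 and DDX31, which take part in large subunit assembly, had ranges of 84.3 to 89.6 and 57.5 to 80.5 CPM over the 6 libraries. DDX49, whose span lies wholly within a gene on the opposite strand, ranged from 13.7 to 17.7 CPM, with the rescue libraries lowest. Summed over all 16, the ribosome assembly helicases stood at 1491, 1465, 1438, 1477, 1052 and 1032 CPM, so the rescue libraries lay below the other 4, which were close together.

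**Figure D4:**
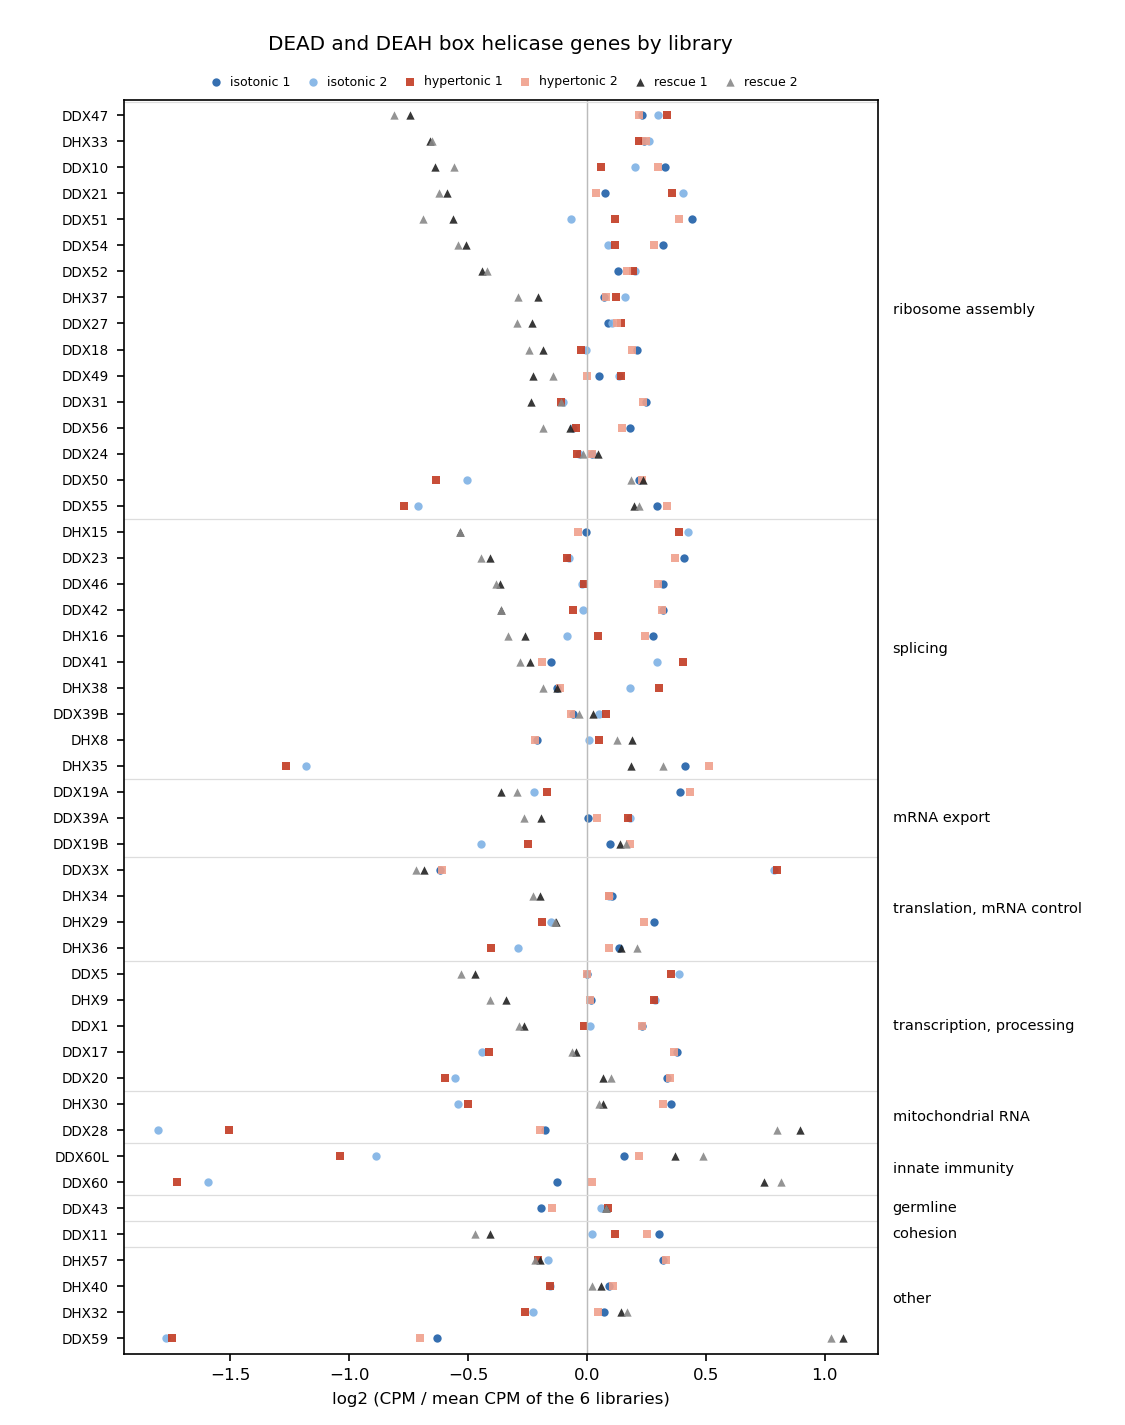
Level of the 48 helicase genes averaging at least 5 CPM in each of the 6 libraries, as log2 of CPM over the gene's own mean (x axis), grouped by role; each point is 1 library. Triangles for the rescue lie left of the other symbols in most ribosome assembly genes, and isotonic 1 lies with hypertonic 2 throughout, at most 1.11-fold apart.

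Among the splicing helicases, DDX23, which releases U1 from the 5′ splice site, was at 77.2, 55.3, 55, 75.3, 43.9 and 42.8 CPM and fell by 0.90 in the rescue (SE 0.18, edgeR adjusted p = 0.0319). DDX46 and DDX42, which act with the U2 particle at the branch point, fell by 0.82 and 0.81 (edgeR adjusted p = 0.0174 and 0.0194). DHX16, which activates the assembled spliceosome, fell by 0.69 (edgeR adjusted p = 0.0271). All 4 were already lower in isotonic 2 and hypertonic 1 than in the other isotonic and hypertonic libraries, but the rescue values lay below those as well. DHX15 had a larger fold change, -1.07, without passing (SE 0.288, edgeR adjusted p = 0.0635). DHX8, which frees spliced mRNA from the spliceosome, was highest in the rescue by library total, at 143.4, 167, 171.6, 142.6, 189.3 and 181.3 CPM. Its TMM-scaled log2 fold change in the rescue was only -0.05 against isotonic and -0.07 against hypertonic, without passing. DHX8 overlaps ETV4 on the opposite strand over 40.9% of its span. By library total ETV4 was also highest in the rescue, at 65.7, 88.5, 89.7, 67.1, 106.3 and 100.7 CPM.

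Outside these groups, 3 helicases passed. DDX11, a DNA helicase needed for cohesion of sister chromatids, was at 93.4, 76.8, 82.2, 90.2, 57.1 and 54.6 CPM and fell by 0.90 (SE 0.107, edgeR adjusted p = 0.0116). DDX1, a subunit of the tRNA splicing ligase complex, fell by 0.69 (SE 0.097, edgeR adjusted p = 0.0149). DHX34, which takes part in nonsense-mediated decay, fell by 0.61 (SE 0.123, edgeR adjusted p = 0.0316). DDX3X changed by -1.28 and DDX5 by -1.01 without passing (edgeR adjusted p = 0.275 and 0.0571). The same held for DHX9, a nuclear helicase of transcription and RNA processing, at -0.83 (edgeR adjusted p = 0.059). For DDX3X the standard error was 0.735, since its 2 isotonic libraries differed by more than the fold change to the rescue. DDX20, part of the SMN complex that builds splicing particles, ranged from 24.6 to 47.3 CPM over the 6 libraries, and DHX29, which assists initiating ribosomes, from 48.2 to 66.8 CPM. DHX57, DHX40 and DHX32, whose roles are less studied, had ranges of 49.3 to 72.3, 90.2 to 108.4 and 46.3 to 62.3 CPM. None of these 5 passed, and in all 5 isotonic 2 and hypertonic 1 lay below isotonic 1 and hypertonic 2. None of the 3 mRNA export, 2 mitochondrial, 3 antiviral or 3 tested germline helicases passed.

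Rescue against hypertonic, which shares the rescue libraries with the comparison just given, called 18 helicases lower and 1 higher (13.8% and 9.86% of all genes). Among genes averaging at least 5 CPM 18.7% were lower and 6.77% higher. The 18 lower genes were those lower against isotonic. Under upper quartile scaling 10 were lower and 2 higher (7.95% and 11.7%), and with library totals alone 7 were lower and 1 higher (6.03% and 11.6%). Against hypertonic 1 alone 35 were lower and 13 higher (40.5% and 41%), and against hypertonic 2 alone 40 were lower and 5 higher (38.6% and 40.5%). Without hypertonic 1, hypertonic 2, rescue 1 or rescue 2 none was called in either direction. DDX47 changed by -1.36, DHX33 by -1.19 and DDX10 by -1.08, side by side with -1.34, -1.20 and -1.16 against isotonic. The gene called higher was DDX4, the germ cell helicase known as VASA in the fly, at 0.04, 0.17, 0.1, 0.06, 1.26 and 1.39 CPM. Its log2 fold change was 3.75 against hypertonic (edgeR adjusted p = 0.0464) and 3.37 against isotonic (edgeR adjusted p = 0.0578). These rest on 4, 15, 10 and 6 counts in the isotonic and hypertonic libraries, near the floor of 3 counts, and on 134 and 128 in the rescue. The size of the change is therefore uncertain. DDX4 overlaps SLC38A9 on the opposite strand over 44.4% of its span, and SLC38A9 was at 24.5, 13.7, 13.2, 24.1, 25.4 and 28.1 CPM.

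The next counts do not use the labels isotonic and hypertonic. Both rescue libraries lay below all 4 others in 26 of the 51 helicases, against 21.8% of all genes and 28.6% of genes averaging at least 5 CPM. They lay above all 4 in 9, against 46.9% of all genes, and in 7 of the 48 averaging at least 5 CPM, against 39.4% of such genes. The 9 were DDX59, DHX36, DDX60, DDX60L, DDX4, DHX32, DDX25, DDX28 and DHX8. After TMM scaling the counts were 33 below and 5 above, against 33.6% and 34.7% of all genes. Among those of the 9 averaging at least 5 CPM, DDX59 had the largest difference, with a rescue mean 4.48-fold that of the other 4 libraries. Its log2 fold change against isotonic was 1.87 without passing (SE 0.474, edgeR adjusted p = 0.0549). DHX36, which unwinds G-quadruplexes, was at 88, 65.7, 60.7, 85.6, 88.7 and 92.7 CPM, so its rescue libraries were close to isotonic 1.

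Whole-library measures moved with the rescue as well. The number of gene rows at 0 was 690 and 699 in the rescue libraries and between 1248 and 1653 in the others. The summed level of 386 olfactory receptor genes, normally silent in such cells, was 116 and 125 CPM in the rescue and between 41 and 61.1 CPM elsewhere. The 5 endothelial markers summed to between 8.14 and 33.4 CPM, highest in the rescue and in isotonic 2 and hypertonic 1, and the leukocyte markers had the same order, with CD3E at 0 in all 4 libraries outside the rescue. The part of these measures in the helicase results was not tested. Of the 27 tested helicases whose span overlaps no other gene of the tables, 11 were lower in the rescue than in isotonic, as were 7 of the 24 that overlap one, against 13.5% of all genes and 18.3% of those averaging at least 5 CPM.

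Low levels were found for 3 helicases, which stayed under 1 CPM in every library. DDX25, a testis helicase, was at 0.06, 0.29, 0.19, 0.06, 0.58 and 0.5 CPM. DHX58, which encodes the RNA sensor LGP2, was at 0.17, 0.09, 0.06, 0.42, 0.58 and 0.3 CPM. DDX53, a cancer-testis gene and the one helicase not tested, was at 0.04, 0, 0.02, 0, 0.04 and 0.07 CPM, at or near the floor of 3 counts. At this depth no difference was detectable for DDX53.

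Related enzymes without a DDX or DHX symbol were listed for comparison. Of 22 such genes 21 were tested, and 6 were lower in the rescue than in isotonic and 5 than in hypertonic, with 0 higher in either. Over all genes tested, 13.5% were lower and 9.61% higher against isotonic, and 13.8% lower and 9.86% higher against hypertonic. MTREX, the helicase that feeds RNA to the nuclear exosome, was at 132.7, 112.6, 104, 136.4, 64.1 and 67.9 CPM and fell by 1.19 from isotonic to rescue (edgeR adjusted p = 0.0104). ZNFX1 and AQR, another antiviral and another splicing helicase, fell by 0.77 and 0.76 (edgeR adjusted p = 0.0199 and 0.0248). EIF4A3, the core of the exon junction complex and chosen after its values were seen, had the order of DDX3X, at 84.5, 207.8, 203.5, 87.5, 168.1 and 156.5 CPM, but its rescue libraries lay between the 2 pairs.

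Partners that load, activate or work beside these helicases were the other list. Of 45 such genes 13 were lower in the rescue than in isotonic and 13 than in hypertonic, with 0 higher in either. The shares over all genes were again 13.5% and 13.8% lower, and 9.61% and 9.86% higher. ALYREF, an export adaptor that binds DDX39B, was at 75.5, 75, 80.6, 76, 48 and 42.7 CPM and fell by 1.03 (edgeR adjusted p = 0.0152). NKRF, a G-patch protein that stimulates DHX15, fell by 1.08 (edgeR adjusted p = 0.0413). EIF4G1, the scaffold of cap-dependent initiation, was at 654, 664, 681.6, 644.2, 426.4 and 405.6 CPM and fell by 0.96 (edgeR adjusted p = 0.0138). RBM10, a splicing regulator with a G-patch, fell by 0.91 (edgeR adjusted p = 0.0391). Under the main scaling, 28.6% and 28.9% of the tested members of these lists were lower against isotonic. The share was 35.3% of the helicases, 13.5% of all genes and 18.3% of genes averaging at least 5 CPM. Medians of log2 fold change against isotonic moved with scaling. For the related enzymes the median was -0.44, with upper quartile scaling -0.23 and with library totals alone -0.15. For the partners these were -0.35, -0.14 and -0.09, and for all genes -0.02, 0.19 and 0.27.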

How the data were processed

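Whole-number counts per gene, without normalization, were deposited by the authors for 6 libraries of 1 cell line, as the values themselves show. The submitters' processing notes name GRCh38, TopHat2, Bowtie2, bedtools and bcl2fastq. The versions, annotation and strand setting, not given in the sources used here, leave reads of overlapping genes indistinguishable. Coordinates are GENCODE release 29 spans. Groups came from the titles. All 6 libraries entered 1 edgeR 4.0.16 quasi-likelihood fit (filterByExpr, TMM, robust, R 4.3.3), adjusted over 18208 genes, with 3 residual degrees of freedom and a common dispersion of 0.148. Printed CPM are plain, by library total, and fitted fold changes are TMM-scaled. The fit was tested on simulated counts with the small spread of the rescue pair and without the differences within the isotonic and hypertonic groups. That setting differs from these data, so it cannot show how often calls here are wrong or missed. Alternatives were DESeq2 1.42.0, limma 3.58.1 voom, other scalings, filters, a replicate block and left-out libraries. The members, the gene lists and the rule for named genes were chosen with earlier results of these data known. That rule gives values for up to 8 members per direction in the rescue comparisons, up to 6 per direction in the number 1 ratio, 5 paralog pairs with DDX3X, members under 1 CPM, and up to 4 genes per other list. PINX1, on more than 1 row, was left out of its list. A gene that the rule would name is not reported here.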

Additional observations from a re-analysis of the deposited data

How the results depend on the processing

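Hypertonic against isotonic kept 0 helicases in each direction under every alternative run except the fits of 1 replicate number, which gave 17 higher and 17 lower in number 1 and 20 higher and 16 lower in number 2. For rescue against isotonic, 18 were lower and 0 higher. The higher count became 2 with DESeq2 and with limma voom, 1 with upper quartile scaling and with library totals, and 6 and 12 in the fits of number 1 and number 2. The lower count became 10 with upper quartile scaling, 6 with library totals, and 40 and 35 in the fits of number 1 and number 2. It ranged from 0 to 14 when each library was left out in turn. For rescue against hypertonic, 18 were lower and 1 higher. The higher count became 2 with DESeq2, limma voom, RLE and upper quartile scaling, ranged from 0 to 2 over left-out libraries, and was 13 and 5 in the fits of number 1 and number 2. The lower count became 10 with upper quartile scaling, 7 with library totals, ranged from 0 to 16 over left-out libraries, and was 35 and 40 in the fits of number 1 and number 2. All 18 genes lower against isotonic were also lower with RLE scaling, DESeq2, limma voom and in both fits of 1 number. Of values per gene, 438 kept their side of the threshold, 238 lost and 44 gained a call, and none reversed. With TMM-scaled CPM both rescue libraries lay above the other 4 in 5 helicases, 5 were at least 1.5-fold higher in number 1 and 5 at least that much lower in number 2, which was also 5 with upper quartile scaling. Apart from the changes the settings make to scaling or to the libraries used, the cause was not tested.

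With the replicate number as a block, the counts were 0 for rescue against isotonic and 0 for rescue against hypertonic, in both directions. The numbers are not known to pair samples: the correlation of number 1 deviations over 18208 genes was -0.905 between isotonic and hypertonic, -0.025 between isotonic and rescue and 0.038 between hypertonic and rescue. With isotonic 1 paired to hypertonic 2 and isotonic 2 to hypertonic 1, a block added after seeing the data, 0 helicases were called in either direction. Only 2 libraries per group limit all calls, and helicases near 3 counts in every library cannot show a difference. Where only some libraries were near 3 counts, as for DDX4, the size of a change is uncertain.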
